A study of Mus musculus with 6 samples.

Results

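Heat shock chaperones bind unfolded proteins and help them reach or regain their shape. Here 10 of their genes, of 22095 gene rows in the table, were followed in activated mouse CD8 T cells: 3 whose proteins work in mitochondria (Hspd1, Hspe1 and Hspa9) and 7 whose proteins work in the cytosol (Hsph1, Hsp90aa1, Hsp90ab1, Hspa8, Hspa4, Dnaja1 and Dnajb1). They were chosen by name as the main chaperones of the 2 compartments, with earlier results of these data known. Every one had a single gene row. Naive CD8+ T cells, the precursors of cytotoxic lymphocytes, had been purified from the spleens of Wild type C57BL/6 mice, an inbred strain. All cultures were activated for 48 h with anti-CD3 and anti-CD28, antibodies that stand in for antigen and costimulation, in medium with recombinant mouse IL-2. The control group of 3 libraries also received DMSO, the solvent, and the other group of 3 libraries received 10 nM ponatinib, a kinase inhibitor known for its action on BCR-ABL and several other kinases. Levels were in TPM, a unit corrected for transcript length, in which genes of 1 library can be compared with each other. The comparison asked how chaperone transcripts differed when the same activation took place with ponatinib.

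As background, HSP70 proteins bind exposed stretches of a polypeptide and release them in a cycle driven by ATP. J-proteins bring substrates and start ATP hydrolysis, and nucleotide exchange factors end the cycle. HSP90 takes over partly folded clients from HSP70, among them kinases and steroid receptors, while the chaperonin HSP60 (Hspd1) with its lid HSP10 (Hspe1) encloses proteins in the mitochondrial matrix. Heat shock factor 1 turns on many of these genes through heat shock elements, arrays of the bases GAA in alternating orientation. Activated T cells grow and divide quickly, and many of their signalling kinases are HSP90 clients.

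With ponatinib, 6 of the 10 chaperone genes were higher and none was lower. These were Hsph1, Hspd1, Dnaja1, Hspe1, Hspa4 and Hsp90aa1, with log2 fold changes from 0.51 down to 0.16 (ponatinib minus DMSO, on log2(TPM + 1)). Hspa9, Hsp90ab1, Hspa8 and Dnajb1 did not pass the limma test, and no member was lower at an unadjusted p under 0.05 either. A gene was called when its p from limma, a linear model fitted to every gene, adjusted by Benjamini-Hochberg over the 6466 genes that averaged 10 TPM or more, was under 0.05. All 10 members passed that minimum. Of all tested genes 29.9% were called higher and 9.88% lower. The 3 ponatinib libraries lay above the 3 DMSO libraries for the same 6 members, against 39.4% of tested genes, and below them for none, against 14.0%. The members' median log2 fold change was 0.18 and that of all tested genes 0.10. As the members were chosen with earlier results known, these contrasts describe them and are not a test of the set.

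The count depended on scaling. When libraries were rescaled by medians of ratios, which brought the median of all tested genes to 0.012, calls stood at 16.9% higher and 16.7% lower, and 3 members were called: Hsph1, Hspd1 and Dnaja1. The other members called on TPM were then above DMSO by 0.13 (Hspe1, adjusted p = 0.147), 0.12 (Hspa4, adjusted p = 0.223) and 0.06 (Hsp90aa1, adjusted p = 0.320 in the same limma fit). The count was also 3 without ponatinib replicate 2 and without ponatinib replicate 3.

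The libraries were alike in the breadth of their transcriptomes, with 6182 to 6620 genes at 10 TPM or more. All 7 CD8 T cell markers (Cd3d, Cd3e, Cd8a, Cd8b1, Trac, Trbc2 and Lck) were well detected. They summed to 2593 to 2639 TPM with DMSO and 3221 to 3576 with ponatinib, and 4 of the 7 were called higher. Markers of myeloid cells summed to at most 4.52 TPM, of erythroid cells and platelets to at most 8.37 TPM, and of CD4 T cells to at most 19.7 TPM. NK markers summed to 18.2 to 30.4 TPM with DMSO and 33.6 to 42.5 with ponatinib. Nearly all of that was Eomes, so the sum by itself does not measure NK cells. The other NK markers were near 0: Klrb1c reached at most 0.446 TPM, Ncr1 0.229 TPM and Klra8 0.199 TPM. All 4 sums were higher in each ponatinib library than in any DMSO library. The CD4 T cell list was mixed. Foxp3, Cd40lg and Cd4 were each higher in every ponatinib library. Zbtb7b went the other way, at 1.46 to 4.64 TPM with DMSO and 0.978 to 1.10 with ponatinib. Among B cell markers Ighm lay between 124 and 159 TPM and Ms4a1 under 3 TPM, both with overlapping groups. Cd79b lay between 6.69 and 14.0 TPM, while Ighd and Cd79a stayed under 3 TPM. Cd79b, Ighd and Cd79a were each higher in every ponatinib library than in any DMSO library. None of the markers reported here was at 0 in all libraries. Immediate early genes summed to 480 to 682 TPM with DMSO and 398 to 449 with ponatinib, but did not move as a class. Of 6 tested, 2 were called lower and 1 higher, against 9.88% and 29.9% of all tested genes. Junb and Atf3, named after their values were seen, were lower in every ponatinib library than in any DMSO library. Zfp36 was higher in the same way, and the groups overlapped for the other genes of the list. DMSO replicate 3 stood apart: transcripts of the mitochondrial genome made up 4.78% of its total, against 7.16% to 10.7% in the other 5 libraries. The part of these shifts in the chaperone differences was not tested. In bulk RNA, a change in the share of a cell type and a change of RNA per cell cannot be told apart.

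Together the 10 genes held about 1% of all transcripts by TPM, between 9763 and 9950 TPM in the DMSO libraries and between 9897 and 10856 in the ponatinib libraries. Levels ran over a wide range. Hsp90ab1 (3328 ± 258 TPM, SD, n = 3) and Hspa8 (3178 ± 210) were the most abundant with DMSO, and their ranges overlapped. Hsp90aa1, Hspd1, Hspe1, Hspa9 and Hspa4 followed in that order, each with a range apart from the one before it. Hsph1 and Dnaja1 overlapped each other, and Dnajb1 was lowest at 38.4 ± 1.76 TPM. This order is that of gene rows: with its separate transcript rows added, Dnaja1 stood at 244 ± 10.3 TPM with DMSO, above Hspa4. With ponatinib Hspd1 (1069 ± 50.6 TPM) came before Hsp90aa1 (1040.4 ± 46.9 TPM), with overlapping ranges, and Hsph1 stood clear of Dnaja1. The order was otherwise the same. The plot of levels by library shows each value.

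**Figure D1:**
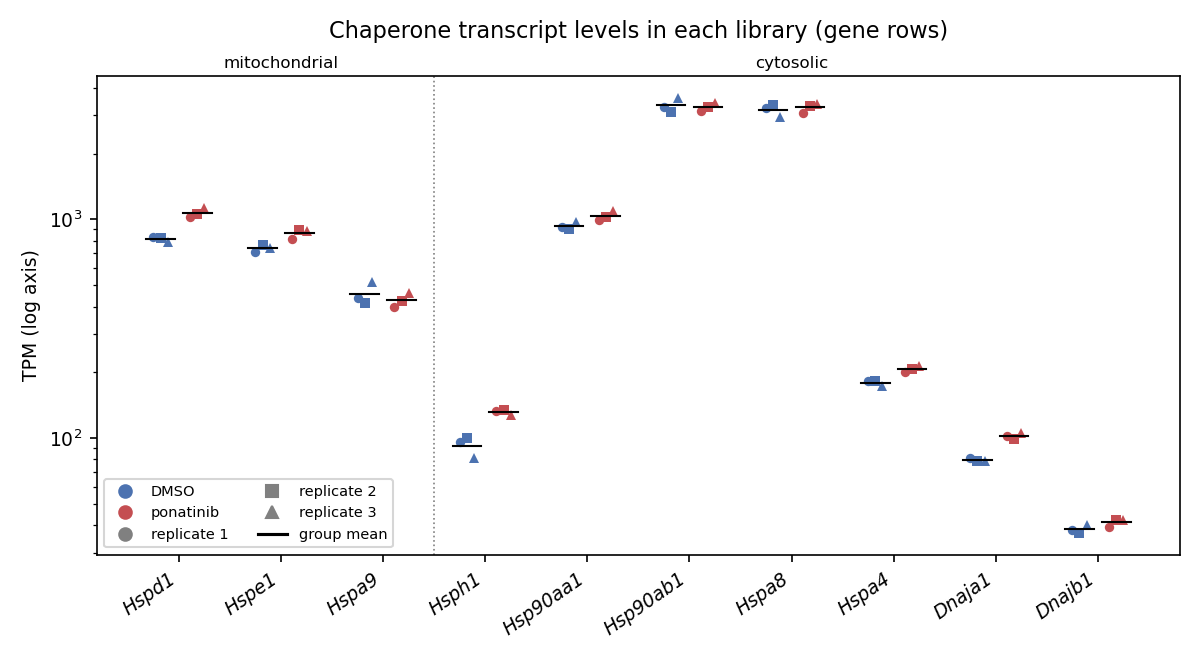
Level of each of the 10 chaperone genes in TPM (log axis) in the 3 DMSO libraries (blue) and the 3 ponatinib libraries (red), with marker shapes for replicate numbers and black bars for group means; mitochondrial genes are left of the dotted line. Groups are apart for Hspd1, Hspe1, Hsph1, Hsp90aa1, Hspa4 and Dnaja1, and Hsp90ab1 and Hspa8 are the most abundant in both groups.

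Hspd1 encodes HSP60, the barrel of the mitochondrial chaperonin, and Hspe1 encodes HSP10, its lid. The genes lie head to head on chromosome 1 of GRCm38. Hspd1 (ENSMUSG00000025980) spans chr1:55077835-55088243 on the minus strand and Hspe1 (ENSMUSG00000073676) spans chr1:55088132-55091307 on the plus strand, so their annotated ends overlap. The sources used here do not say whether reads were counted by strand, and reads from that overlap cannot be assigned with certainty. Between the main annotated start sites of Hspd1 and Hspe1, which are 107 bases apart, lies an array of 4 alternating units at chr1:55088059-55088076, 35 bases from the first and 56 bases from the second. It falls in the first exon of the minor transcript Hspd1-202. It is shown because both genes share it, read on each strand with 6 bases on either side, the 18 bases of the array in capitals (GRCm38, chr1:55088053-55088082, sequence from RefSeq promoter windows).
Hspe1, plus strand: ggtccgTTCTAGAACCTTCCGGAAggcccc
Hspd1, minus strand: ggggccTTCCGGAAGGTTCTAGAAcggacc

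Both chaperonin genes were higher with ponatinib. Hspd1 stood at 829.7, 825 and 793 TPM in DMSO replicates 1, 2 and 3 and at 1027, 1054 and 1125 TPM in ponatinib replicates 1, 2 and 3. Every ponatinib library was above every DMSO library, and the gap between the groups was wider than the spread within either. The means were 816 ± 20.0 and 1069 ± 50.6 TPM (SD, n = 3 each), a log2 fold change of 0.39 (SE 0.049, 95% interval 0.27 to 0.50, limma adjusted p = 0.00115). Hspd1 kept its call under all 16 alternatives tried.

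Hspe1 moved less than its partner. It stood at 712, 767 and 740.4 TPM with DMSO and at 814, 897 and 890.35 TPM with ponatinib. The groups did not overlap, and ponatinib replicate 1 was nearest to the controls. Its log2 fold change came to 0.23 (SE 0.054, 95% interval 0.10 to 0.35, limma adjusted p = 0.0127). The call was lost in 5 of 16 alternatives, among them leaving out DMSO replicate 1 (adjusted p = 0.0538), ponatinib replicate 2 (0.0599) or ponatinib replicate 3 (0.0559). The ratio of Hspd1 to Hspe1 within a library, which no scaling of whole libraries can change, was 1.16, 1.08 and 1.07 with DMSO and 1.26, 1.17 and 1.26 with ponatinib. The groups were apart, though ponatinib replicate 2 lay close to DMSO replicate 1.

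Hspa9 encodes mortalin, the mitochondrial HSP70, which pulls proteins through the import channel and folds them in the matrix. It did not follow the chaperonin pair. Its levels were 439, 415 and 515 TPM with DMSO and 396, 426 and 459.9 TPM with ponatinib. DMSO replicate 3, the library with the lowest mitochondrial genome share, was highest, and the groups overlapped. The log2 fold change was -0.09 (SE 0.088, 95% interval -0.29 to 0.11, limma adjusted p = 0.439). Without DMSO replicate 3 it was -0.00082. The ratio of Hspd1 to Hspa9 was 1.89, 1.99 and 1.54 with DMSO and 2.59, 2.47 and 2.45 with ponatinib, a ratio of group means of 1.39. The ratio of Hspe1 to Hspa9 rested at 1.62, 1.85 and 1.44 with DMSO and at 2.05, 2.11 and 1.94 with ponatinib. Both ratios were apart between groups in all 6 libraries.

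As a set, the mitochondrial and cytosolic genes shifted by similar amounts. Of the 3 mitochondrial genes 2 were called higher, and of the 7 cytosolic genes 4, against 29.9% of all tested genes. The mean log2(TPM + 1) of the mitochondrial genes went from 9.35 ± 0.041 to 9.52 ± 0.080, a difference of 0.18, and that of the cytosolic genes from 8.41 ± 0.014 to 8.60 ± 0.043, a difference of 0.19. Mitochondrial minus cytosolic was 0.897, 0.914 and 0.998 with DMSO and 0.880, 0.924 and 0.954 with ponatinib. These values overlapped, and their group means differed by -0.02, less than the SD of either group (0.054 and 0.037). Under quantile normalization the difference was -0.068, larger in size than either of these SDs. The differences between genes of 1 compartment were larger than the difference between compartments: log2 fold changes ran from -0.09 to 0.39 among the mitochondrial genes and from -0.02 to 0.51 among the cytosolic ones.

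HSP90 has 2 cytosolic forms in mammals, HSP90 alpha (Hsp90aa1), the more stress-responsive form, and HSP90 beta (Hsp90ab1), the more constitutive one. Hsp90aa1 (chr12:110690605-110702728, minus strand) stood at 921, 902 and 974 TPM with DMSO and at 999.7, 1029.9 and 1092 TPM with ponatinib. The groups were apart by a narrow margin, DMSO replicate 3 lying just under ponatinib replicate 1. The log2 fold change was 0.16 (SE 0.052, 95% interval 0.04 to 0.28, limma adjusted p = 0.0428), and it turned to -0.010 under quantile normalization (adjusted p = 0.892). Leaving out any library except DMSO replicate 3 or ponatinib replicate 1 raised the adjusted p to between 0.106 and 0.153.

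Hsp90ab1 (chr17:45567775-45573271, minus strand) showed no shift beyond its spread. Its levels were 3269, 3104 and 3609.5 TPM with DMSO and 3118, 3283 and 3421 TPM with ponatinib, fully overlapping. The log2 fold change was -0.02 (SE 0.065, 95% interval -0.17 to 0.13, limma adjusted p = 0.818), and it was 0.0093 under quantile normalization. Its interval leaves room for a change of either sign. The ratio of Hsp90aa1 to Hsp90ab1 was 0.282, 0.291 and 0.270 with DMSO and 0.321, 0.314 and 0.319 with ponatinib. The alpha form was thus a larger fraction of the beta form in each ponatinib library than in any DMSO library, a ratio of means of 1.13 between groups.

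Among the cytosolic HSP70 family, Hspa8 encodes HSC70, the constitutive form, and it was nearly as abundant as Hsp90ab1. Hspa8 (chr9:40800984-40810087, plus strand) stood at 3239, 3351 and 2944 TPM with DMSO and at 3067, 3316 and 3379 TPM with ponatinib. The groups overlapped, with DMSO replicate 3 lowest of all. The log2 fold change was 0.03 (SE 0.063, 95% interval -0.11 to 0.18, limma adjusted p = 0.691), and it was -0.058 with medians of ratios. Stress-inducible HSP70 was nearly absent. Hspa1a was between 0.441 and 0.995 TPM and Hspa1b between 1.33 and 2.27 TPM in all 6 libraries, with overlapping groups. These genes were singled out after their values were seen, and reads can be split wrongly between them because they are almost identical.

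Hsph1 and Hspa4 encode HSP110 proteins, HSP70 relatives that act as nucleotide exchange factors for HSP70. Hsph1 (chr5:149614287-149636376, minus strand) stood at 95.7, 101 and 81.3 TPM with DMSO and at 133, 134 and 128 TPM with ponatinib. All ponatinib libraries were far above all DMSO libraries, and DMSO replicate 3 was the lowest. The means were 92.6 ± 10.1 and 132 ± 3.53 TPM, a log2 fold change of 0.51 (SE 0.080, 95% interval 0.33 to 0.69, limma adjusted p = 0.00247), the largest among the 10 members. Without DMSO replicate 3 it was 0.42. Hsph1 was called under all 16 alternatives. Its ratio to Hspa8 was 0.0295, 0.0301 and 0.0276 with DMSO and 0.0434, 0.0405 and 0.0378 with ponatinib, again with every ponatinib library above. The Hsph1 promoter windows surround RefSeq start sites at chr5:149636315 and chr5:149636336. They held 1 element of 3 units after both sites (capitals at chr5:149636288-149636300). Before both sites lay 1 separate element of 2 units (capitals at chr5:149636362-149636369). Both elements fall within the annotated span of Hsph1 given above. They are shown on the minus strand of GRCm38, from RefSeq, with the element in capitals, as the counterpart of the chaperonin array.
Hsph1, 3 units: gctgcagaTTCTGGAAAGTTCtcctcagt
Hsph1, 2 units: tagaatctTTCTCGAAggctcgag

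Hspa4 (chr11:53259814-53300457, minus strand) rose less than Hsph1. It stood at 183, 183 and 173 TPM with DMSO and at 200.9, 207 and 215 TPM with ponatinib. The groups were apart, and DMSO replicate 3 was again the lowest. Hspa4 thus had a log2 fold change of 0.21 (SE 0.049, 95% interval 0.09 to 0.32, limma adjusted p = 0.0126). The call was lost by a small margin without ponatinib replicate 2 (adjusted p = 0.0523) or ponatinib replicate 3 (0.0549). The ratio of Hsph1 to Hspa4 was 0.522, 0.551 and 0.471 with DMSO and 0.663, 0.648 and 0.596 with ponatinib, so the 2 exchange factors changed unequally.

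Dnaja1 and Dnajb1 encode J-proteins that deliver substrates to cytosolic HSP70. Dnaja1 (chr4:40722150-40737149, plus strand) stood at 81.4, 78.5 and 78.9 TPM with DMSO and at 102, 98.8 and 105 TPM with ponatinib. The groups were well apart, with an SD of 1.58 TPM with DMSO and 3.22 TPM with ponatinib. The log2 fold change was 0.35 (SE 0.049, 95% interval 0.24 to 0.47, limma adjusted p = 0.00154), and Dnaja1 was called in all 15 alternatives that tested it. One of its promoter windows held 1 element of 2 units at chr4:40722344-40722351 (GRCm38, plus strand, RefSeq), given here with its 8 bases in capitals.
Dnaja1, 2 units: agcctctaGAAAATTCtacgaggc

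The gene row held only part of the Dnaja1 signal. The table lists 3 further Dnaja1 transcripts in rows of their own, and these held 65.5% to 68.7% of the summed TPM in each library. Most came from Dnaja1-205 (ENSMUST00000137246), at 157, 147 and 166 TPM with DMSO and 192, 198 and 189 TPM with ponatinib. That transcript was also higher in every ponatinib library. Gene row and transcript rows together averaged 244 ± 10.3 and 302 ± 2.88 TPM, a log2 fold change of 0.31 (limma adjusted p = 0.00274). For Hsph1 such rows held 2.49% to 8.48%, for Hspd1 2.26% to 4.17%, and for every other member under 0.3%. Hspd1-202, whose first exon covers the array of heat shock units, stood at 24.5, 26.1 and 33.6 TPM with DMSO and at 22.4, 27.2 and 28.2 TPM with ponatinib, with overlapping groups.

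**Figure D2:**
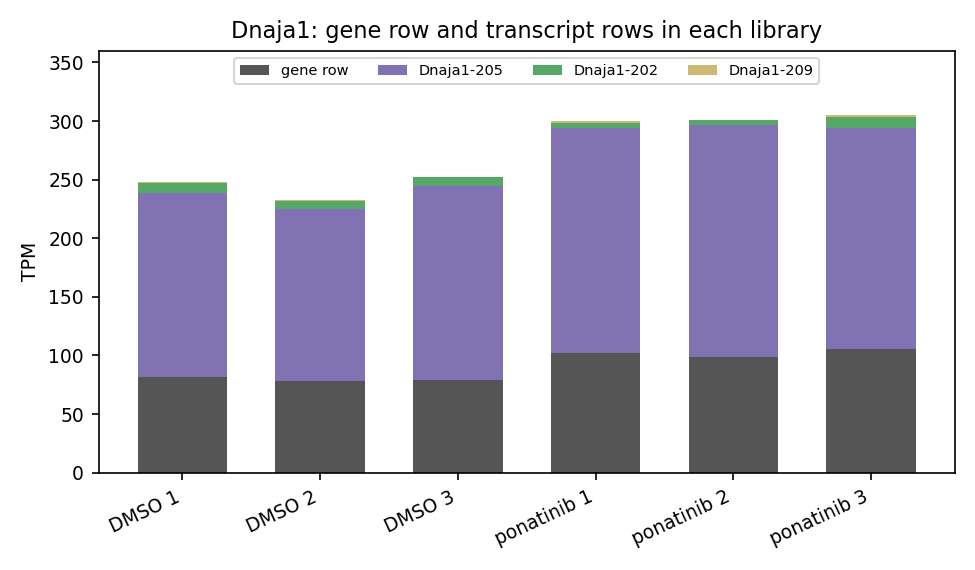
TPM of the Dnaja1 gene row (grey) and of its 3 separate transcript rows, stacked for each of the 6 libraries. Bars reach 232 to 252 TPM with DMSO and 299.7 to 305 TPM with ponatinib, and Dnaja1-205 is the largest piece of every bar.

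Dnajb1 (chr8:83608193-83612653, plus strand), which encodes HSP40, was the least abundant member. It stood at 37.9, 36.9 and 40.3 TPM with DMSO and at 39.1, 42.3 and 42.4 TPM with ponatinib. DMSO replicate 3 exceeded ponatinib replicate 1, so the groups overlapped. On the log2 scale the change was 0.10 (SE 0.062, 95% interval -0.04 to 0.24, limma adjusted p = 0.224), equal to the median of all tested genes. The ratio of Dnaja1 to Dnajb1 was 2.15, 2.13 and 1.96 with DMSO and 2.61, 2.34 and 2.48 with ponatinib, and each ponatinib library was above each DMSO library.

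**Figure D3:**
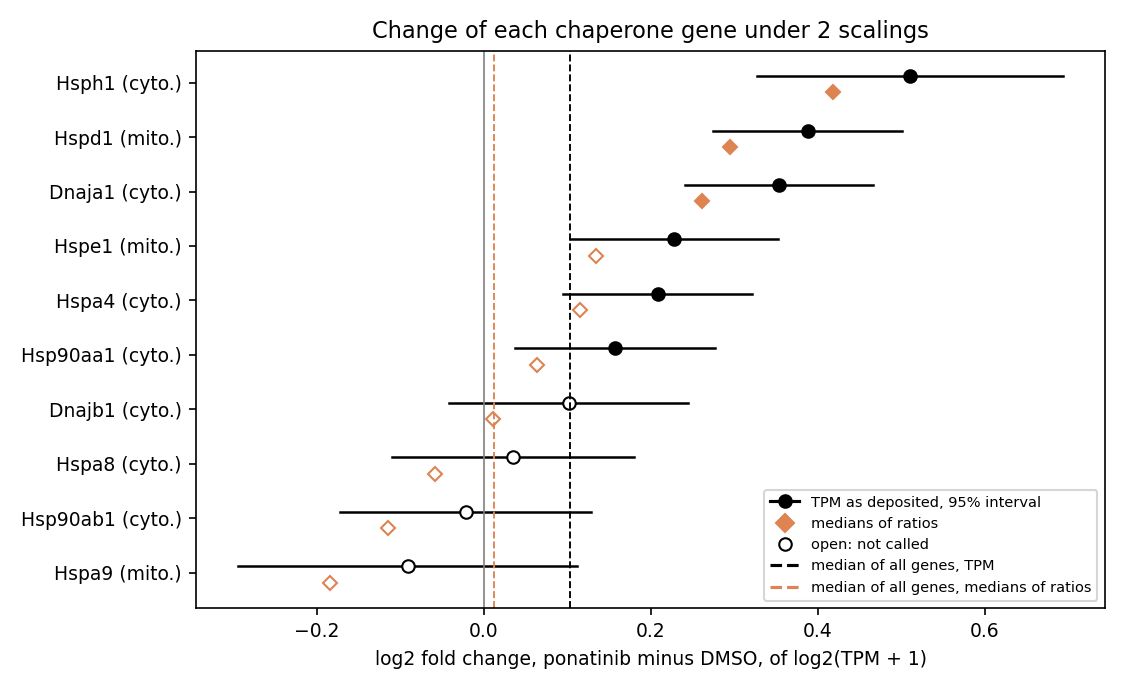
Log2 fold change of each chaperone gene on log2(TPM + 1), from TPM as deposited (black circles with 95% intervals) and after scaling by medians of ratios (orange diamonds); filled symbols passed the test and dashed lines mark the median of all tested genes, 0.10 and 0.012. Hsph1, Hspd1 and Dnaja1 are filled under both scalings, and Hspa9 is lowest under both.

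**Figure D4:**
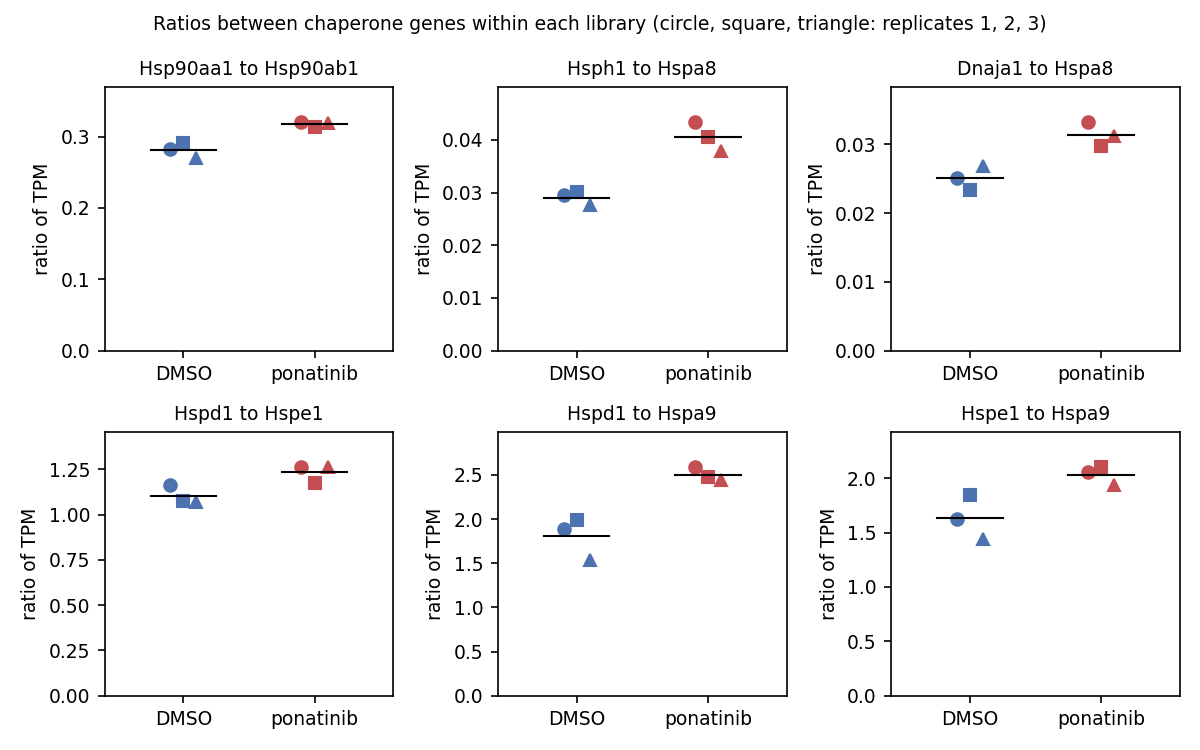
Ratio of TPM between chaperone genes within each library, with the 3 DMSO libraries in blue, the 3 ponatinib libraries in red, and black bars for group means. All 6 ratios are apart between the groups, among them Hspd1 to Hspa9 (group means differing by 1.39 times) and Hsp90aa1 to Hsp90ab1 (0.281 against 0.318). Most pairs set a gene called higher against a gene not called, and all were chosen with earlier results of these data known. Ratios of other gene pairs were not computed for comparison.

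Heat shock elements were then read across all members with a promoter sequence. RefSeq windows on GRCm38.p6 (250 bases before to 50 after a start site) were at hand for 6 members, Hspd1, Hspe1, Hsph1, Hspa4, Dnaja1 and Dnajb1, in 11 windows. Hspa9, Hsp90aa1, Hsp90ab1 and Hspa8 had no entry. The motif was GAANNTTC or TTCNNGAA for 2 units, extended by further alternating units at the same spacing, on both strands, with shorter elements counted again inside longer ones. Among all 32851 windows, 15.1% held 2 units, 0.603% held 3 units and 0.0244% held 4 units. Those with 4 units were 8 windows, among them the one of Hspd1 and the one of Hspe1, which read the same array, and the one of Chordc1, an HSP90 co-chaperone. Windows of Hspa4 and Dnajb1 held none of 2 units. The CCAAT box was found for Hspd1, Hsph1, Dnaja1 and Dnajb1, and in 37.4% of all windows. A match describes letters and not binding. Of 34 tested genes with a 3-unit element, 10 were called higher and 3 lower, against 29.9% and 9.88% of all tested genes. The median log2 fold change of these 34 was 0.13. Without the 3 members among them, 7 of 31 were called higher and 3 lower, with a median of 0.11 against 0.10 for all tested genes.

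HSP90 works with co-chaperones that load clients, set the pace of its ATPase or add enzymes. Of 20 listed, 19 were tested, 11 were called higher and none lower, against 29.9% and 9.88% of all tested genes. Their median log2 fold change was 0.26, and at an unadjusted limma p under 0.05 none was lower and 12 were higher. Chordc1, a zinc-binding co-chaperone, went from 51.0 ± 4.62 to 71.3 ± 4.18 TPM (log2 fold change 0.48, limma adjusted p = 0.00282). Ppid, the cyclophilin of HSP90 complexes, rose from 119.7 ± 5.91 to 165 ± 10.5 TPM (0.46, adjusted p = 0.00146 in the same limma fit). Ahsa1, which activates the HSP90 ATPase, went from 203 ± 4.11 to 248 ± 14.2 TPM (0.29, adjusted p = 0.00492 by limma). All 3 were called under every alternative that tested them. The count of co-chaperones was 7 with medians of ratios and 7 without ponatinib replicate 3.

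Other cytosolic folding genes were set beside all tested genes, of which 29.9% were called higher and 9.88% lower. Among 8 tested HSP70 proteins and exchange factors of 13 listed, Hspbp1 and Bag4 were higher and Bag2 and Hspa4l lower, with a median of 0.03; Hspa4l was named after its value was seen. Among 10 tested J-proteins of 14, Dnajc7 (0.27, limma adjusted p = 0.00708) and Dnajc5 were higher and Dnajc21 lower, with a median of 0.11. None of the 8 subunits of TRiC, the cytosolic relative of HSP60, was called by limma in either direction, and at an unadjusted p under 0.05 there were 2 higher and 0 lower. Nearest came Cct6a (0.15), Cct3 (0.12) and Tcp1 (-0.08). Of the 6 subunits of prefoldin, which hands proteins to TRiC, Pfdn2 (0.34, limma adjusted p = 0.00400) and Pfdn5 were higher. Counts this small moved when 1 library was left out: the HSP70 and exchange factor list gave 0 to 2 higher and 0 to 2 lower, the J-proteins 1 to 5 higher and 0 or 1 lower, TRiC 0 to 2 higher and 0 or 1 lower, and prefoldin 1 or 2 higher. With medians of ratios no gene of the HSP70 and J-protein lists was higher, 1 prefoldin subunit was, and Tcp1 was lower (-0.17, limma adjusted p = 0.0454). In that fit 2 genes of the HSP70 list and 1 J-protein were also lower. Of all tested genes 16.9% were then called higher and 16.7% lower.

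In mitochondria, 11 of 12 genes listed as HSP70 partners and import motor, called partners below, were tested. Whether each works with mitochondrial HSP70 was not checked. Of the 11 tested, Dnajc11, Dnlz and Dnajc15 were higher and none was lower. That share was near the 29.9% of all tested genes called higher, and the median was 0.12 against 0.10. Dnajc11 changed most (0.30, limma adjusted p = 0.00534). Of 12 mitochondrial proteases and other chaperones, 5 were lower and none higher (median -0.12), against 9.88% and 29.9% of all tested genes. At an unadjusted limma p under 0.05, 2 were higher. The count of higher calls was 1 under the replicate block, without DMSO replicate 3 and without ponatinib replicate 1. Lonp1, the matrix protease that degrades damaged proteins, stood at 153, 141 and 193 TPM with DMSO and at 92.9, 99.5 and 98.1 TPM with ponatinib, with DMSO replicate 3 highest. Its log2 fold change was -0.73 (SE 0.106, limma adjusted p = 0.00191). Htra2, a protease of the intermembrane space, fell from 34.7 ± 3.21 to 23.2 ± 3.67 TPM (log2 fold change -0.57, limma adjusted p = 0.00769). With transcript rows added, Htra2 changed by -0.23 and was not called (limma adjusted p = 0.0517). Clpb, a disaggregase, changed by -0.25 (adjusted p = 0.0317 by limma). The other 2 called lower were Afg3l2 and Spg7, named after their values were seen. Leaving out 1 library gave 2 to 5 lower genes in this list of proteases and other chaperones, the fewest without ponatinib replicate 1 or ponatinib replicate 3, and 1 to 4 higher partners. With medians of ratios 7 genes of the list were lower and 1 partner was higher, while 16.7% of all tested genes were lower and 16.9% higher.

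Regulators were split. Hsf1, heat shock factor 1, stood at 25.4, 25.2 and 24.7 TPM with DMSO and at 27.8, 29.1 and 31.2 TPM with ponatinib. The groups were apart, and the log2 fold change was 0.22 (SE 0.064, limma adjusted p = 0.0291). It was not called with medians of ratios or in 4 of the 6 fits without 1 library. Hsbp1, which binds heat shock factor 1, changed by 0.09 (adjusted p = 0.335 by limma), and Hsf2, Hsf4 and Hsf5 were below the minimum. All 3 transcription factors listed for the mitochondrial and integrated stress responses were called lower. Of all tested genes 9.88% were called lower and 29.9% higher, and with medians of ratios 16.7% lower and 16.9% higher. Atf4 fell from 381 ± 90.2 to 165 ± 18.1 TPM (-1.18, limma adjusted p = 0.00126), Ddit3 changed by -1.76 and Atf5 by -0.55. Each kept its call in every fit that tested it. Atf4 and Ddit3, like Lonp1 and Hspa9, were highest in DMSO replicate 3.

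Most genes listed by symbol as small heat shock proteins were scarce, and membership of that protein family was not checked. Of 5 listed only Hspb11 was tested, with a log2 fold change of -0.33 (limma adjusted p = 0.0578). It was called lower in 4 of 15 alternatives: both other scalings, the replicate block and the fit without DMSO replicate 1. Cryab and Hspb8, singled out after their values were seen, were listed at 0 in all 6 libraries. In the endoplasmic reticulum, 4 of 12 tested chaperones of 13 listed were higher and none lower (median 0.19), again near the 29.9% of all tested genes. Calr, calreticulin, rose from 539 ± 4.45 to 745 ± 10.4 TPM (0.47, limma adjusted p = 0.000280), and Dnajc3 (0.33) and Pdia3 (0.24) were also called. Without DMSO replicate 3, 10 of these chaperones were called higher, as were 2745 of all 6428 tested genes.

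**Figure D5:**
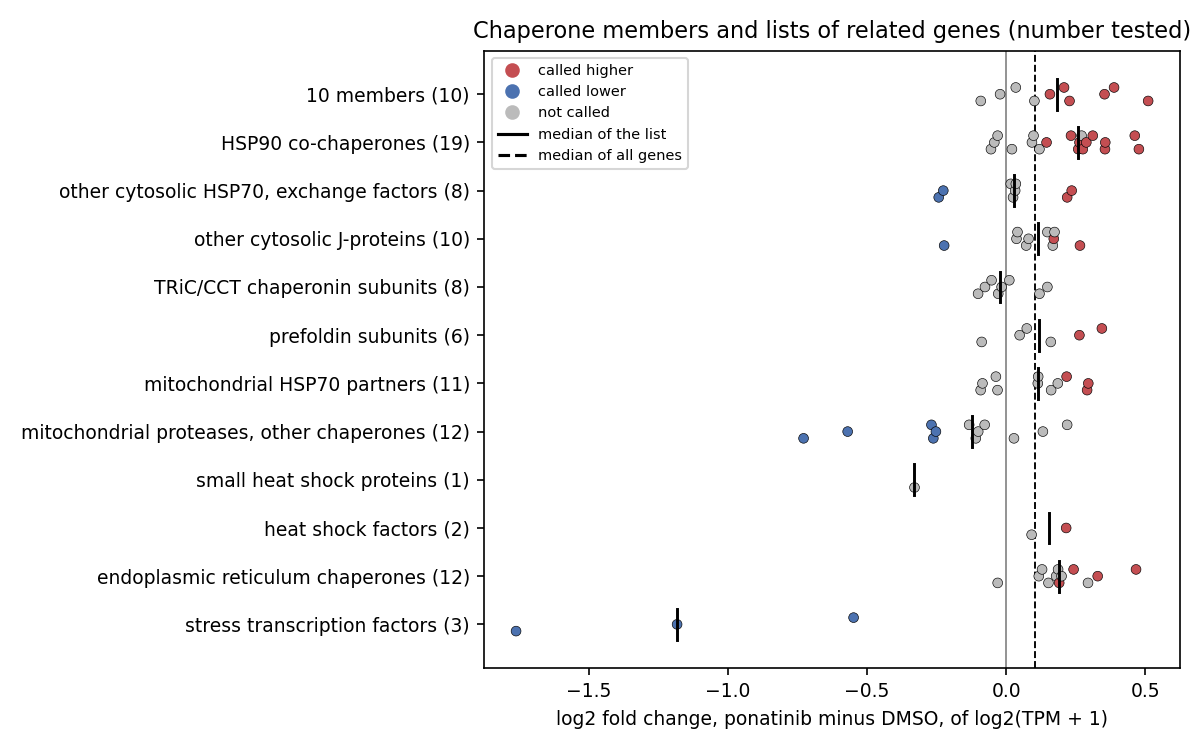
Log2 fold change of the 10 chaperone genes and of 11 lists of related genes, with 1 point per tested gene (red called higher, blue called lower, grey not called), a black bar at each list's median and a dashed line at the median of all tested genes. HSP90 co-chaperones lie mostly to the right with a median of 0.26, TRiC subunits centre near 0, and Ddit3 and Atf4 of the stress transcription factors lie furthest left.

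The genes whose profiles over the 6 libraries were most like those of the 2 sets were then read out, as the smallest root mean square difference between centred log2(TPM + 1) values. For the mean of the mitochondrial genes these were Ranbp1 (0.0141), Aar2 (0.0155) and Safb (0.0160). For the mean of the cytosolic genes they were Etf1 (0.0105), Hars (0.0142) and Tssc4 (0.0146). Likeness over 6 libraries is a description of these samples.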

How the data were processed

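RNA libraries had been made with NEBNext Ultra II after RNeasy Plus Micro extraction, per the labels' protocols, which do not say that replicates were separate mice or cultures. The p-values therefore cover the spread among these samples alone, and that spread may be technical. The authors deposited 1 table of TPM, transcript abundances per length that sum to 1000000 in each library, so read depth is unknown and the number of libraries limits precision. Tools in the submitters' processing notes are Salmon 1.5.1, fastp 0.19.5 and DESeq2 1.22.1, with the build GRCm38 and no role for any. How genes were summed is not stated in the sources used here. The table had 43072 rows, 22095 of genes and 20977 of transcripts; 0 columns belonged to samples outside the series. Symbols and positions were those of GENCODE mouse release 21, which was not the authors' release, as only 11 gene rows carried its version.

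Gene rows with a mean of at least 10 TPM (6466) were transformed to log2(TPM + 1), which understates changes of low genes, and compared with limma 3.58.1 (lmFit, then eBayes with trend) in R 4.3.3, two-sided, with Benjamini-Hochberg adjustment and a threshold of 0.05. The median SE of a log2 fold change was 0.075. Alternatives numbered 16: transcript rows added, 2 other scalings, pseudocounts of 0.1 and 10, 3 other minimums, robust variance estimates, a replicate block and 6 fits without 1 library. Named were all 10 members, in each of 11 lists the 3 tested genes with the smallest p, and 3 genes most like each set; others named are marked as such or counted to completion. Where rows shared a symbol, the higher one was used. Members, ratios and lists were chosen with earlier results of these data known. Of 13 pseudogene names of members in the annotation, 0 had a row, so reads of such copies could be counted for a member. One marker gene of the B cell list, and the sum that needs it, is not reported here.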

Additional observations from a re-analysis of the deposited data

How the results depend on the processing

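Of 158 values of the 10 members under alternatives, 137 kept direction and side of the threshold, 15 kept direction without passing it and 6 changed sign. Hspd1 and Hsph1 were called in 16 of 16 and Dnaja1 in 15 of 15, against 11 of 16 for Hspe1, 12 of 16 for Hspa4 and 9 of 16 for Hsp90aa1. The number of members called higher was 3 under either of the other scalings, quantile normalization or medians of ratios, and 3 to 6 when 1 library was left out, with 3 without ponatinib replicate 2 or 3; the cause was not tested. No alternative called a member lower. Mitochondrial minus cytosolic change was -0.068 under quantile normalization and -0.037 to 0.014 when 1 library was left out. Sign changed for Hsp90aa1 under quantile normalization (-0.010), for Hsp90ab1 under quantile normalization (0.0093), and for Hspa8 with medians of ratios (-0.058). It also changed when DMSO replicate 3 or ponatinib replicate 1 was left out for Hsp90ab1 (range -0.070 to 0.038) and without DMSO replicate 3 for Hspa8 (range -0.019 to 0.077).

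Over all genes, 1931 higher and 639 lower calls became 1276 and 1001 under quantile normalization, 1094 and 1080 after scaling by medians of ratios, and 428 and 137 of 1232 tested at a minimum of 100 TPM. Without ponatinib replicate 2 or 3 there were 1197 and 1138 higher calls, and without DMSO replicate 3 there were 2745. Same-numbered libraries did not deviate together (correlations of -0.098, 0.127 and 0.0094), so the numbers were not taken as a pairing. With the replicate block 6 members were called higher, and 1911 genes higher and 646 lower. With 3 libraries a group, changes near the median SE of 0.075 on the log2 scale are hard to resolve.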
